A study of Mus musculus with 16 samples.

Results

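Axon guidance ligands and receptors were followed in mouse preSC, a cultured model of the precancerous stage of small cell lung cancer, with and without added Wnt5a. The genes were chosen by symbol and comprised the ephrins and Eph receptors, the semaphorins with their plexin and neuropilin receptors, the Slit ligands and Robo receptors, and the netrins with Dcc and the Unc5 receptors. Of the 17655 gene symbols listed in the deposited files, 70 belonged to these families. A mean normalised read count of at least 10 over the 16 samples was reached by 46 of the 70, and these were tested. The other 24 stayed under it, and the values nearest the limit were 8.81 for Sema6d below it and 13.6 for Ntng2 above it.

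Both groups were Chga-positive neuroendocrine cells of the lung that were null for Rb1 and Trp53 and carried 1 null allele of Rbl2. One group had been infected with an empty lentiviral vector (termed empty) and the other with a lentivirus carrying Wnt5a (termed Wnt5a), and both were kept in doxycycline (1 µg/mL, 48 hours) until RNA was extracted. Each group held 8 samples. The labels do not say how many cultures or clones the samples came from, so p-values measure only the spread between these samples, which may be technical. Samples 1 to 4 of a group differed from each other by little more than counting noise, as did samples 5 to 8, and each set of 4 was averaged and counted as 1 library, A or B, which left 2 libraries per group.

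The values are read counts per gene scaled by 1 factor per sample. Whole reads were recovered from them, and a library held 30220749 to 32592342 reads in the empty group and 35102931 to 35315408 in the Wnt5a group. Wnt5a itself was at 144 and 99.8 in empty libraries A and B and at 1049 and 1509 in Wnt5a libraries A and B, a log2 difference of 3.38 (SE 0.22; limma adjusted p = 0.0010). Permuting the 4 libraries exactly (two-sided) gave 0.333 as p, which is the lowest value possible for 2 against 2. All 12 neuroendocrine markers were expressed, with sums of 63493 to 67640 in empty libraries and of 57614 to 61650 with Wnt5a, and 1 of them passed the test, Scg2 (log2 difference -0.73; limma adjusted p = 0.012). Fibroblast markers (4 of 5 listed) summed to 353 to 604 and 244 to 248, nearly all of it Dcn, with Col1a2 at 0 in both empty libraries. Leukocyte markers (3 of 4) summed to 10.8 to 15.3 and 11.98 to 14.8, with Cd3e at 0 in 3 of 4 libraries, and endothelial markers (3 of 4) to 4.32 to 5.79 and 3.52 to 4.23, with Cdh5 at 0 in the Wnt5a libraries. Markers of neurons and glia (5 of 6) summed to 6314 to 6510 and 5470 to 5549, mostly from Map2, Mbp and Tubb3, and Gfap was at 0 in 3 of 4 libraries. Lung epithelial markers (5 of 5) summed to 5830 to 6223 and 5600 to 5912, nearly all of it Epcam. The part of other cell types in the group differences that follow was not tested.

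Axon guidance cues steer growing nerve fibres and migrating cells by attraction or repulsion. Ephrins are bound to the cell surface and signal through Eph receptor tyrosine kinases on neighbouring cells, often in both directions. Semaphorins act through plexins, and most secreted class 3 semaphorins need a neuropilin as co-receptor. Slits are secreted repellents read by Robo receptors, and netrins attract through Dcc or repel through Unc5. The same cues act outside the nervous system in vessels and branching lung epithelium, and Slit and Robo proteins take part in the migration and clustering of pulmonary neuroendocrine cells.

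The cells expressed a small set of these genes at high level and most at low level. Divided by the length of the longest transcript, which allows levels to be compared between genes, Robo1 stood first of the 70 genes, at a mean of 1156 normalised reads per kb over the 4 libraries. It was followed by the secreted netrin Ntn4 at 556 per kb, the secreted semaphorin Sema3e at 429 per kb and the semaphorin receptor Plxnb1 at 413 per kb. Unc5a at 377 per kb, Plxnb2 at 367 per kb and the receptor tyrosine kinase Ephb3 at 336 per kb came next. Robo1 lay above 98.3% of all listed genes with a known transcript length, Ntn4 above 94.6% and Ephb3 above 89.7%.

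**Figure D1:**
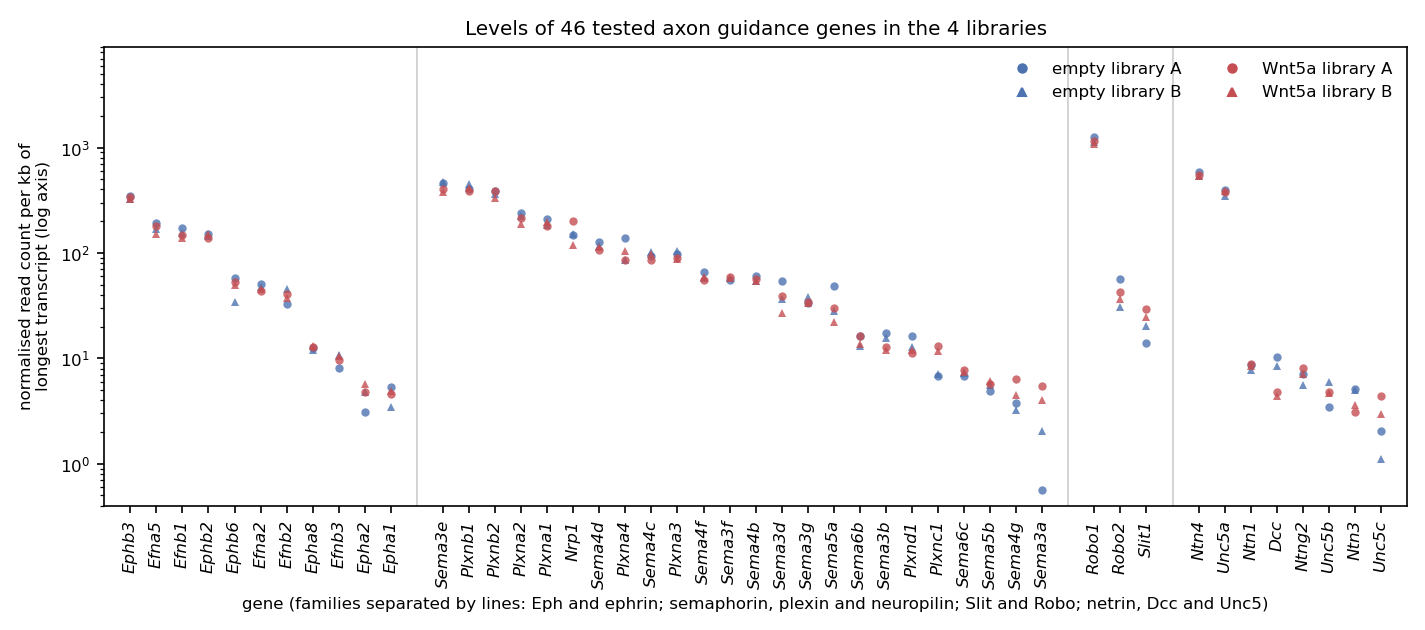
Normalised read count per kb of longest transcript (vertical log axis) of the 46 tested axon guidance genes, ordered by level within 4 families separated by vertical lines. Circles are libraries A and triangles libraries B, blue for empty and red for Wnt5a; Robo1 stands at the top of the plot, and within each family the levels span a range far wider than the spread between libraries.

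In most classes 1 member held most of the signal, in every library. Robo1 held 95.7% to 97.4% of the summed per-kb level of the Robo receptors, Unc5a 97.5% to 98.5% of the Unc5 receptors, and Ntn4 97.6% to 97.7% of the netrins. Nrp1 held 99.9% of the neuropilins in every library, and Slit1 97.2% to 99.4% of the Slits. Sema3e held 72.7% to 76.0% of the class 3 semaphorins, and Efna5 75.0% to 79.4% of the A-type ephrins. The plexins were more even: Plxna2 held 32.7% to 37.8% of the plexin-A level, and in Wnt5a library B it stood behind Plxna1.

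Ligand and receptor levels lay far apart for Slit and Robo, and closer for ephrins with Eph receptors and semaphorins with plexins. Ephrins summed to 458 and 432 normalised reads per kb in empty libraries A and B, against 579 and 524 for Eph receptors. Semaphorins summed to 1054 and 1017 per kb there, against 1509 and 1429 for plexins. The Robo receptors summed to 1325 and 1170 normalised reads per kb in empty libraries A and B and to 1189 and 1108 with Wnt5a. The Slit ligands summed to 14.1 and 20.4 per kb in empty libraries A and B and to 30.4 and 25.1 with Wnt5a. Among Eph receptors the B class, which mainly binds B-type ephrins, held 94.6% to 96.3% of the summed per-kb level. Ephrins of both types were present, at 246 and 221 per kb (A-type) and 212 and 210 per kb (B-type) in the empty libraries.

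Between the groups, 2 of the 46 tested genes passed the threshold: Plxnc1 rose and Dcc fell. The test was limma on log2(value + 1) over 12357 genes, with an adjusted p under 0.05. Over all genes tested the same call was made for 2.06% (1.38% higher and 0.672% lower in Wnt5a), against 4.35% of the members, so the members' count is small and nothing particular to them can be read from it. An unadjusted p under 0.05 was found for 10 of the 46 (21.7%), against 16.1% of all genes. The median log2 difference of the 46 was -0.04, with 26 lower and 20 higher in Wnt5a, against a median of 0.0026 over all genes. Without empty library A or B the members' median was 0.0090 or -0.11, and the number past the threshold moved in fits that left out 1 library. The median size of the difference was 0.13 on the log2 scale for the members and 0.11 for all genes. The 2 libraries of one group lay wholly above or below those of the other for 19 members (41.3%), 9 of them higher and 10 lower in Wnt5a, against 44.2% of all genes tested. Samples of 1 library differed by little more than counting noise, so samples that do not overlap still compare 2 libraries with 2. In bulk RNA, fewer expressing cells and less RNA per cell cannot be told apart, which holds for each difference given here.

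**Figure D2:**
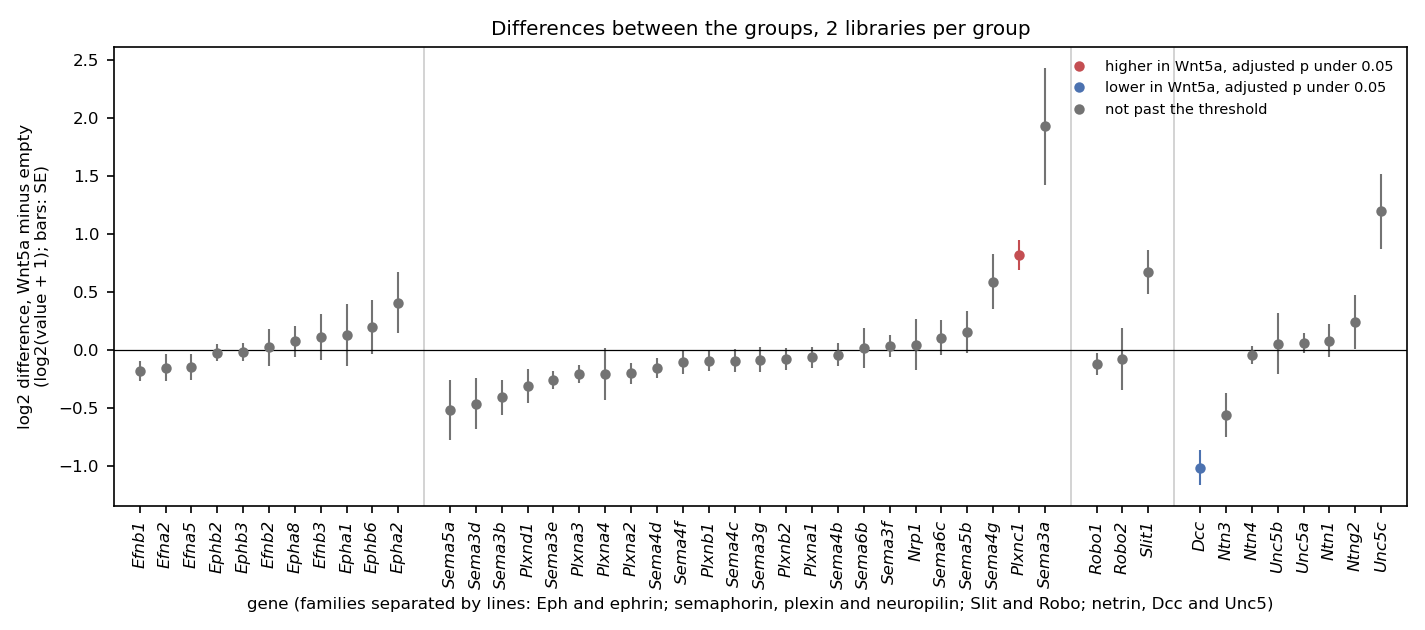
Log2 difference between Wnt5a and empty (vertical axis, log2(value + 1) scale; bars are the standard error of the limma fit, 2 libraries per group) for the 46 tested genes, sorted within 4 families. Plxnc1 (red) and Dcc (blue) are past the adjusted threshold; Sema3a and Unc5c have larger positive differences than Plxnc1 but wider error bars.

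Plxnc1 encodes plexin-C1, the receptor of the membrane-anchored semaphorin Sema7a. In the 8 empty samples its normalised read count had a lowest value of 39.6, a median of 52.4 and a highest value of 61.8, and in the 8 Wnt5a samples 65.4, 92.1 and 111. The lowest Wnt5a sample lay above the highest empty sample, so the groups did not overlap. The library means were 50.7 ± 1.09 in empty and 90.4 ± 6.88 in Wnt5a (SD, n = 2), which gave a log2 difference of 0.82 (SE 0.13; limma adjusted p = 0.033). Its ligand gene Sema7a was under the filter in both groups, between 6.07 and 8.15 in the 4 libraries.

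Dcc encodes the netrin receptor of attraction, which also acts as a dependence receptor. Its values were 83.2, 92.9 and 122 (lowest, median and highest) in the 8 empty samples and 31.7, 47.0 and 65.0 in the 8 Wnt5a samples. Every Wnt5a sample lay below every empty sample. The library means were 96.9 ± 13.1 and 47.4 ± 2.75 (SD, n = 2), and their log2 difference was at -1.01 (SE 0.15; limma adjusted p = 0.025). Without Wnt5a library B neither gene was past the threshold, at a limma adjusted p of 0.075 for Dcc and 0.095 for Plxnc1, and without Wnt5a library A Plxnc1 was not, at 0.154. With a minimum mean of 50 in place of 10, the limma adjusted p of Plxnc1 was 0.058. A fit that leaves out a library assumes that the lone sample of a group varies like the others.

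Of the 31 semaphorin, plexin and neuropilin genes, 24 were tested and 1 passed, Plxnc1 (4.17%, against 2.06% of all genes tested). In Wnt5a 16 were lower (66.7%, against 49.3% of all genes tested) and 8 higher. Whether the family moved as a set was not tested. The secreted repellent Sema3a had the largest difference of the 46 tested members. Its normalised read counts were 1.11, 7.92 and 16.3 (lowest, median and highest) in the empty samples and 15.99, 28.6 and 40.5 in the Wnt5a samples, so the highest empty sample overlapped the lowest Wnt5a sample. Sema3a was at 3.31 and 12.2 in the 2 empty libraries and at 32.4 and 23.7 in the Wnt5a libraries, a log2 difference of 1.93 (SE 0.50; limma adjusted p = 0.128). It was the one tested member with an empty mean under 10, so it passed the filter only through the Wnt5a libraries and had to differ. With an empty library left out, Sema3a differed by a log2 value of 1.118 (without library A) or 2.74 (without library B). Sema3a also passed in DESeq2 (adjusted p = 0.011), but under the same filter, so that call does not test the difference.

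Sema3e, the ligand of plexin-D1 and the leading semaphorin here, was at 3209 ± 69.9 with the empty vector and at 2682 ± 157 with Wnt5a (SD, n = 2), which is -0.26 as a log2 value (SE 0.08; limma adjusted p = 0.168). All 8 Wnt5a samples (2519 to 2829) lay below all 8 empty samples (3110 to 3317), yet the difference was not past the threshold. Its receptor Plxnd1 was at 101 ± 16.9 and 80.5 ± 2.90 (SD, n = 2), or -0.31 on the log2 scale (limma adjusted p = 0.385). The remaining class 3 genes tested, Sema3b, Sema3d, Sema3f and Sema3g, had log2 differences of -0.41, -0.46, 0.03 and -0.08, none past the threshold.

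The 4 plexin-A genes, which encode the signalling receptors for class 3 and class 6 semaphorins, all had a lower mean in Wnt5a, by small amounts that did not pass the test. Their log2 differences ran from -0.20 for Plxna3, Plxna4 and Plxna2 to -0.06 for Plxna1. Plxna3 was the only one of the 4 whose samples did not overlap, at 656 to 774 in empty and 581 to 644 in Wnt5a (limma adjusted p = 0.254). Plxna1 was at 1908 and 1674 in empty libraries A and B and at 1637 and 1790 in the Wnt5a libraries. Plxna4 was at 1804 and 1092 in empty and at 1096 and 1355 in Wnt5a, so for both genes the libraries of the groups overlapped. Plxnb1 and Plxnb2, receptors of class 4 semaphorins, had log2 differences of -0.09 and -0.07, at 3691 ± 238 against 3461 ± 182 and 2442 ± 131 against 2325 ± 237 (SD, n = 2). Nrp1, the co-receptor of Sema3a, was at 539 and 555 in the empty libraries and at 733 and 435 in the Wnt5a libraries, so its 2 Wnt5a libraries lay on either side of the empty ones. The 5 class 4 semaphorins tested had log2 differences of -0.15 to 0.59, and classes 5 and 6 ran from -0.51 for Sema5a to 0.16 for Sema5b.

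**Figure D3:**
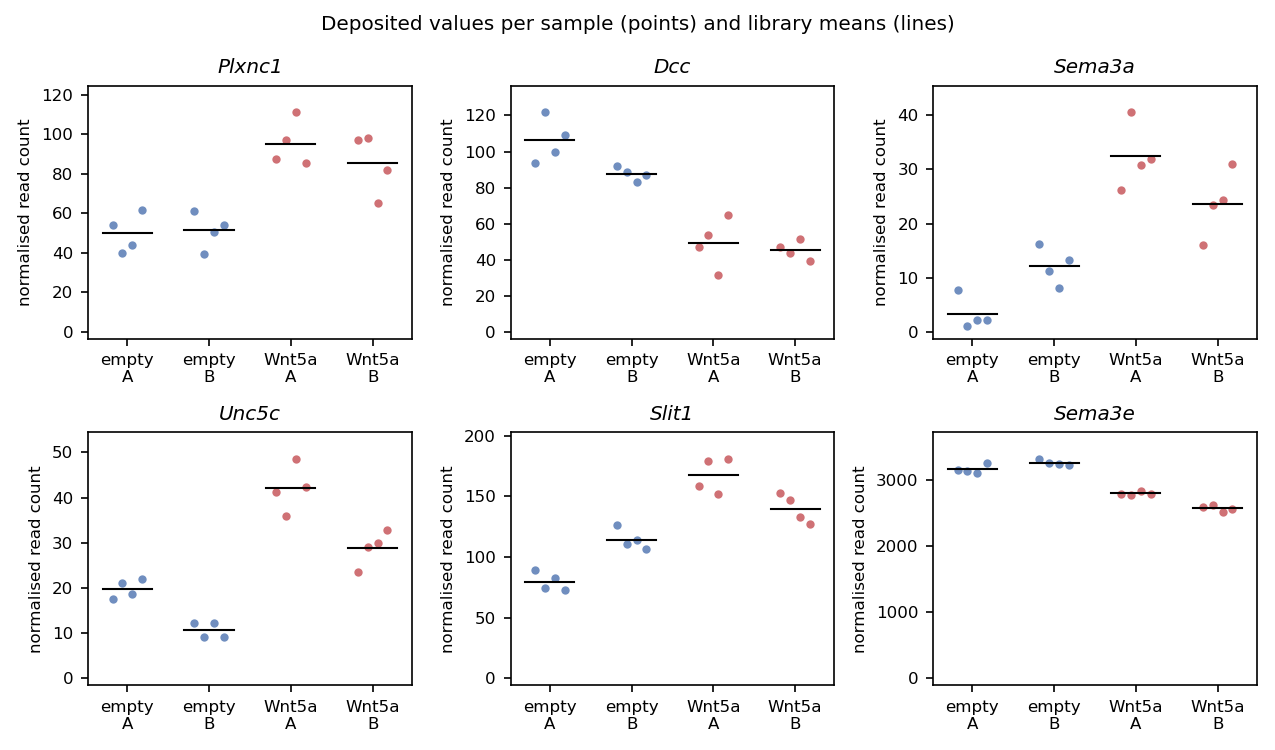
Normalised read count per sample (vertical axis, linear from 0; points) and library mean (horizontal lines) for Plxnc1, Dcc, Sema3a, Unc5c, Slit1 and Sema3e, with 4 samples in each of empty libraries A and B (blue) and Wnt5a libraries A and B (red). Plxnc1 and Dcc separate the groups, though empty libraries A and B of Dcc also differ, at 106 and 87.6. For Sema3a, Unc5c and Slit1 libraries A and B of the same group differ as well.

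Of the netrin, Dcc and Unc5 genes, 8 of 11 were tested and Dcc alone passed (12.5%, against 2.06% of all genes tested). The repulsive receptor gene Unc5c, which was near the filter, was at 9.14, 15.0 and 22.1 (lowest, median and highest) in the empty samples and at 23.5, 34.4 and 48.6 in the Wnt5a samples. The samples of the groups did not overlap, but libraries A and B differed within each group, at 19.9 and 10.7 in empty and 42.0 and 28.8 in Wnt5a, and the log2 difference of 1.20 (SE 0.32) had a limma adjusted p of 0.135. Without empty library A it was 1.62 and without empty library B 0.78. DESeq2 called Unc5c (adjusted p = 0.045), while edgeR did not (adjusted p = 0.135). Unc5a, the Unc5 gene that dominates these cells, was at 1476 ± 140 and 1538 ± 24.3 (SD, n = 2), with a log2 difference of 0.06. The netrins themselves were Ntn4 at 2060 ± 131 and 1997 ± 29.0, Ntn1 at 48.2 ± 3.64 and 51.0 ± 1.89 and Ntn3 at 25.3 ± 0.47 and 16.9 ± 1.64 (SD, n = 2). Ntn1 is the classical ligand of Dcc, and its log2 difference of 0.08 was far from the threshold (limma adjusted p = 0.859).

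In the Slit and Robo family 3 of 6 genes were tested and 0 passed in limma, where 1 (Slit1) had an unadjusted p under 0.05. Robo1, with 33838 to 36897 recovered reads per library, was at 9102 ± 687 in empty and 8381 ± 401 in Wnt5a (SD, n = 2), with -0.12 as the log2 difference (SE 0.09; limma adjusted p = 0.639). Slit1 was at 72.8, 97.9 and 127 (lowest, median and highest) in the empty samples and at 127, 152 and 181 in the Wnt5a samples. The highest empty sample, 126.5, lay just under the lowest Wnt5a sample, 127.0. Slit1 differed by a log2 value of 0.68 (SE 0.19; limma adjusted p = 0.145). Without empty library A this was 0.42 and without empty library B 0.93. DESeq2 called Slit1 (adjusted p = 0.035), while edgeR did not (adjusted p = 0.150). With chromosome medians subtracted the log2 difference of Slit1 was 0.32 (limma adjusted p = 0.623). Robo2 was at 491 and 262 in the empty libraries and at 369 and 314 in the Wnt5a libraries, with the Wnt5a libraries inside the range of the empty ones.

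Of the 22 Eph and ephrin genes, 11 were tested and 0 passed in limma, with 0 at an unadjusted p under 0.05, and DESeq2 also called 0 of them. The leading receptors, Ephb3 and Ephb2, were at 1603 ± 82.5 against 1583 ± 47.5 and at 1598 ± 46.6 against 1577 ± 82.3 (SD, n = 2), with log2 differences of -0.02 each. The leading ephrins, Efna5 and Efnb1, had log2 differences of -0.14 (SE 0.11) and -0.18 (SE 0.09). The largest differences among the 11 tested genes were those of Epha2 at 0.41 (SE 0.26; limma adjusted p = 0.544) and of Ephb6, a receptor without kinase activity, at 0.20 (SE 0.23; limma adjusted p = 0.764). The direction of Ephb6 rested on the empty libraries: it was 0.59 without library A (limma adjusted p = 0.017) and -0.18 without library B (limma adjusted p = 0.487).

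Below the filter, 4 EphA receptor genes and 2 semaphorin genes were almost without reads in the empty libraries and had reads in both Wnt5a libraries. A gene was counted here when it had at most 3 reads in each empty library and at least 20 in each Wnt5a library, a rule chosen after the values were seen. Epha3, Epha4, Epha5, Epha7, Sema3c and Sema6d met it, which is 8.57% of the 70 members against 0.278% of all 17655 listed genes (49 genes). The reverse rule, at most 3 reads in each Wnt5a library and at least 20 in each empty library, was met by 0.0% of all genes. EphA receptors bind mainly A-type ephrins such as Efna5, Sema3c acts through neuropilins and plexins, and Sema6d is a membrane-bound ligand of Plxna1.

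Epha3 had 0 reads in both empty libraries and 24 reads in each Wnt5a library, and all 8 Wnt5a samples held some, from 3 to 9. Against the floor of 3 reads over the empty group and scaled by total reads, Epha3 was at least 14.3-fold higher in Wnt5a. Epha4 had 1 read in each empty library and 54 and 37 reads in the Wnt5a libraries, a ratio of 40.6 (exact 95% interval 10.9 to 340.2, for counting error only). Epha5 had 0 and 1 reads against 76 and 51, and Epha7 1 and 0 reads against 75 and 52, so each held 1 read in empty and 127 in Wnt5a, a ratio of 113 (95% interval 19.97 to 4509). These 4 genes lie on chromosomes 16, 1, 5 and 4.

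Sema3c had 2 and 0 reads against 54 and 33, a ratio of 38.8 (95% interval 10.4 to 325), and Sema6d had 1 and 0 reads against 75 and 74, a ratio of 133 (95% interval 23.5 to 5284). Each of the 6 genes had reads in all 8 Wnt5a samples, and at most 2 of the 8 empty samples held any. On the normalised scale they stayed low in Wnt5a, between 5.62 for Epha3 and 17.8 for Epha5. A limma fit without the filter called the same 6 of the 70 members and 0.827% of all listed genes, but the rule had picked the 6 for this difference, so neither that call nor their ratios and intervals test it. Plxnc1 and Dcc were not past the threshold in that fit (limma adjusted p = 0.098 and 0.090). The Wnt5a libraries were the deeper ones, by less than 1.5-fold. The summed markers of fibroblasts, endothelium, and neurons and glia were lower in both Wnt5a libraries than in both empty ones. So was the neuroendocrine sum. The endothelial sums were at most 5.79 in any library, and the leukocyte and lung epithelial sums overlapped between the groups. Mbp, from the list of neurons and glia, was higher in Wnt5a, at 1623 and 1626 against 1548 and 1478. The part of other cell types in these 6 genes was not tested.

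**Figure D4:**
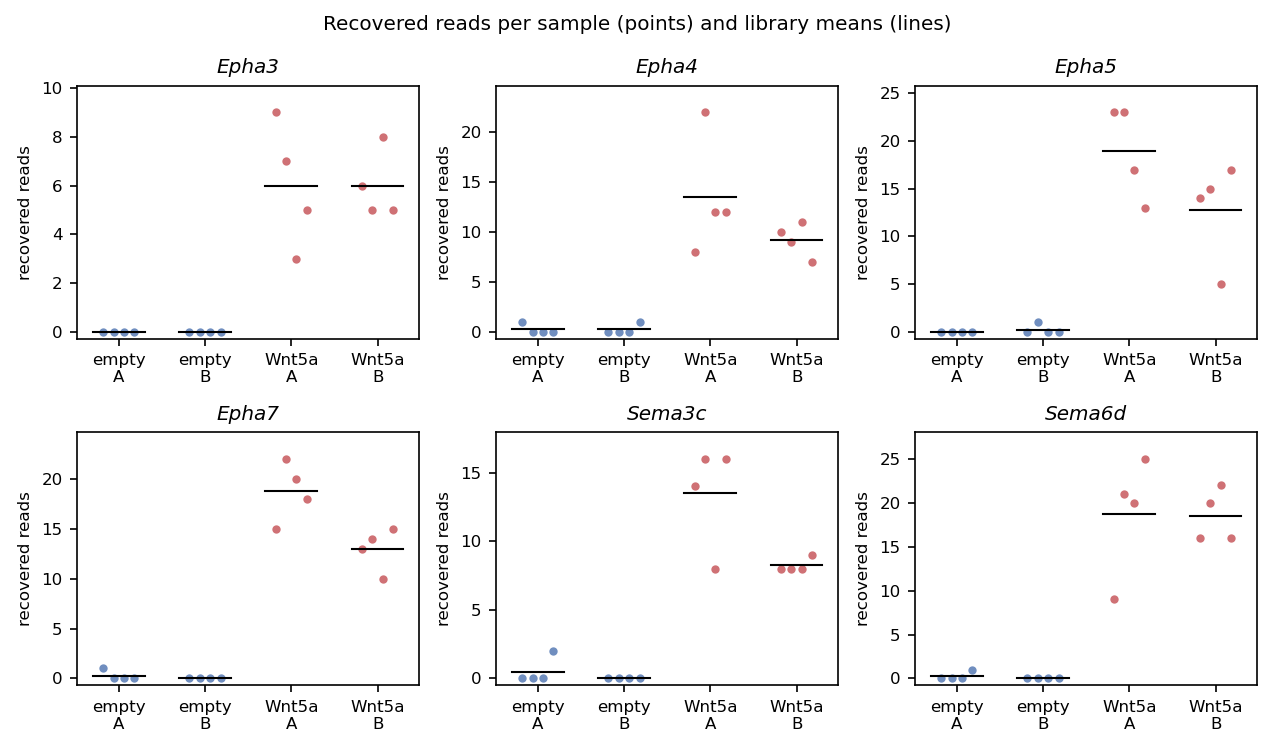
Recovered reads per sample (vertical axis, linear from 0; points) and library mean (horizontal lines) for Epha3, Epha4, Epha5, Epha7, Sema3c and Sema6d, with 4 samples in each library. No empty sample (blue) exceeds 2 reads, and all Wnt5a samples (red) have at least 3.

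The promoters of these 6 genes are shown because these are the members with almost no reads in one group and reads in every sample of the other. Each sequence is the 250 bases before the first gene start that RefSeq gives for GRCm38.p6, 5′ to 3′ on the gene's strand. The genome build used for the deposited counts is not given in the sources used here. Capitals mark the GC box GGGCGG or its reverse complement CCGCCC, the core of the site of Sp1-type factors.
Epha3 (chr16:63864176-63864425, minus strand): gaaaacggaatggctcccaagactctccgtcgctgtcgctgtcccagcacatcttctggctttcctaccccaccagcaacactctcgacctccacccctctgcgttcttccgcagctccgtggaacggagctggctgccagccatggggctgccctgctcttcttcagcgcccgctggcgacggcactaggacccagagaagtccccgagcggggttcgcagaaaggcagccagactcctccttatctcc
Epha4 (chr1:77515089-77515338, minus strand): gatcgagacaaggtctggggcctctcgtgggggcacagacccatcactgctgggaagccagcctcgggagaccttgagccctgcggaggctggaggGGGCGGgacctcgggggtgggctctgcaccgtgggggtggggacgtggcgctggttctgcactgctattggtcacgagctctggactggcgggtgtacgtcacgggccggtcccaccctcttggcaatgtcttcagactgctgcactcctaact
Epha5 (chr5:84417383-84417632, minus strand): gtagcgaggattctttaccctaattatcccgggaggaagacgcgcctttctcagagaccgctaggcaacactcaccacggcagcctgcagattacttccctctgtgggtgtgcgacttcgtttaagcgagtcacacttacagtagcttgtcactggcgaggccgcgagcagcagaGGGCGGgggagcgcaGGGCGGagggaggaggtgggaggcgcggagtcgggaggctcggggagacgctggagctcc
Epha7 (chr4:28812881-28813130, plus strand): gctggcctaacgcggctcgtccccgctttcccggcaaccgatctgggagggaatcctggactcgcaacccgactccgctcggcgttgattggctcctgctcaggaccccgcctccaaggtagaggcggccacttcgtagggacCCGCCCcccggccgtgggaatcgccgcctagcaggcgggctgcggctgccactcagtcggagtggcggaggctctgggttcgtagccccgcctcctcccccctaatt
Sema3c (chr5:17574566-17574815, plus strand): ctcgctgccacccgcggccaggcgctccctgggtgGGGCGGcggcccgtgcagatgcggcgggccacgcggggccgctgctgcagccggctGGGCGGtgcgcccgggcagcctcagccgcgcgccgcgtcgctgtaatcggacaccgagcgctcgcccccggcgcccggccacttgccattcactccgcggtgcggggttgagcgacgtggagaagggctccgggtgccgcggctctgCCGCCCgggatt
Sema6d (chr2:124089719-124089968, plus strand): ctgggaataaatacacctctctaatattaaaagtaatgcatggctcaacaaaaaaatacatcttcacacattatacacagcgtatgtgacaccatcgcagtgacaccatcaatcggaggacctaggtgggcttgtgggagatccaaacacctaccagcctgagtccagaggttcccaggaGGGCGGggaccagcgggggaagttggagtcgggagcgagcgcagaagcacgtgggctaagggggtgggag

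A GC box was found in the promoters of 5 of these 6 genes, all but Epha3. It was found in 73.3% of the 60 members with a promoter in the table, in 53.4% of the 13503 listed genes that could be matched and in 32.9% of all 27025 promoters of this length. The number of CG dinucleotides ran from 9 in Sema6d to 39 in Sema3c, with a median of 18, against 16 for the members and 14 for the listed genes. GC content was 52.4% for Sema6d and 62.4% to 78.4% for the others. A match describes letters in the window, not a bound site.

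The other 18 members under the filter included Efna1, Efna3, Efna4, Nrp2, Plxnb3, Robo3, Slit2 and Slit3 and had at most 10 in every library. Ephb1 and Ephb4 were close to 0, at no more than 0.28 in any library. Slit2 was at 0.83 and 1.53 in empty libraries A and B and at 5.39 and 3.75 with Wnt5a, and it did not meet the rule above.

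Position on the chromosome moved with some differences. The median log2 difference of all tested genes was 0.36 on chromosome 19, -0.17 on chromosome 1 and 0.17 on chromosome 11. Slit1 and Sema4g lie on chromosome 19, and after the chromosome medians were subtracted their log2 differences went from 0.68 to 0.32 and from 0.59 to 0.23. Plxna2 and Sema4c lie on chromosome 1 and went from -0.20 to -0.03 and from -0.09 to 0.08. Efnb3 and Ntn1 lie on chromosome 11 and went from 0.11 to -0.06 and from 0.08 to -0.09, so the direction of Sema4c, Efnb3 and Ntn1 depends on this step. Plxnc1 on chromosome 10 and Dcc on chromosome 18 lie where the median was within 0.02 of 0.

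The spread between libraries A and B of a group set the limit for several members. Libraries A and B differed by more than 1.5-fold for 10 of the 46 tested genes, in the empty group for 9 of them and in the Wnt5a group for 1. Plxna4 was at 1804 and 1092 in empty and at 1096 and 1355 in Wnt5a. Sema5a, which encodes a transmembrane semaphorin, was at 526 and 302 in empty and at 322 and 241 in Wnt5a, a log2 difference of -0.51 (SE 0.26; limma adjusted p = 0.409). Ephb6 was at 218 and 128 in empty and at 200.03 and 185 in Wnt5a. For these 3 genes and for Robo2, empty library A was the highest of the 4.

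Downstream of the receptors, a list of 72 co-receptors, further ligands and cytoplasmic effectors was examined in the same fit. Of these, 71 were listed and 67 tested, and 4 passed the threshold (5.97%, against 2.06% of all genes tested). Grb10 and Dpysl4 were higher and Chn1 was lower in Wnt5a. Rhoa was also higher, but with an empty mean of 2.72 it passed the filter only through the Wnt5a libraries. Its call therefore does not test the difference, and both shares count it. The numbers past the threshold, for the list and for all genes, moved in some fits that left out a library. The list's median log2 difference was -0.11, with 53 of 67 genes lower in Wnt5a, where 49.3% of all tested genes were lower. The list was chosen with earlier results of these data known, so nothing particular to it can be read from these shares. Chn1 encodes a Rac GTPase-activating protein that acts below EphA4. It was at 1295, 1344 and 1399 (lowest, median and highest) in the empty samples and at 925, 973 and 1067 in the Wnt5a samples. The groups did not overlap, and Chn1 fell by 0.45 in log2 terms (SE 0.07; limma adjusted p = 0.035). The call was lost in 5 of 16 alternatives, at a limma adjusted p of 0.098 without the trend, 0.056 with a minimum mean of 50, 0.078 without the filter, and 0.092 and 0.213 without Wnt5a library A and B.

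Dpysl4 belongs to the collapsin response mediators, cytoplasmic proteins that relay semaphorin signals to microtubules. It rose from a mean of 22.9 ± 5.08 to 64.4 ± 8.07 (SD, n = 2), that is by a log2 value of 1.46 (SE 0.20; limma adjusted p = 0.021), with all Wnt5a samples (51.9 to 82.8) above all empty samples (14.4 to 32.5). The 4 other family members tested were not past the threshold, with log2 differences of -0.24 for Dpysl2, -0.24 for Dpysl3, -0.08 for Dpysl5 and -0.08 for Crmp1. Grb10, an adaptor that binds receptor tyrosine kinases, rose from 105 ± 9.10 to a mean of 328 ± 47.4 (SD, n = 2), or by 1.63 in log2 terms (SE 0.13; limma adjusted p = 0.0022). It lies on chromosome 11, and with the chromosome median subtracted its difference was 1.46.

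Rhoa, the GTPase through which plexins and Eph receptors collapse growth cones, had 17 and 3 reads in empty libraries A and B. In the Wnt5a libraries Rhoa had 2186 and 2164 reads (log2 difference 7.34, SE 0.48, limma adjusted p = 0.0010). Its empty mean was 2.72, so Rhoa passed the filter only through the Wnt5a libraries and had to differ. That p-value therefore does not test the difference. The other GTPases of the list, Rac1, Cdc42, Rnd1 and Rras, had log2 differences of 0.05, -0.05, 0.05 and -0.32, none past the threshold. The kinases below them, Rock1, Rock2, Pak1, Pak2, Pak3, Limk1 and Limk2, had log2 differences from -0.25 for Pak3 to 0.0084 for Limk2, none past the threshold. Without Wnt5a library B, Dpysl4 was not past the threshold (limma adjusted p = 0.068), nor was it without the filter (0.090).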

How the data were processed

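Sequencing libraries were prepared by oligo-dT selection, starting with 500 ng RNA, per the labels' protocols. The authors deposited 1 signal per gene and sample, a read count divided by 1 scaling factor, per the values, of which 100% in each file were whole multiples of 1 step (tolerance 0.01). TopHat, Bowtie, HTSeq and DESeq2 are named in the submitters' processing notes. Roles, versions, genome build, annotation and strand use are not given in the sources used here, so overlapping and antisense genes carry added uncertainty.

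Dividing each value by the step gave whole reads. The index of dispersion between samples of a group was 0.987 to 1.05 within samples 1 to 4 or 5 to 8 and 5.23 to 5.44 otherwise, so each set of 4 was counted as 1 library. Genes with a mean of at least 10 (12357) were tested with limma 3.58.1 (R 4.3.3; eBayes with trend) on log2(value + 1), Benjamini-Hochberg adjusted over all of them; this scale understates changes of low genes. edgeR 4.0.16 and DESeq2 1.42.0 on the recovered reads were alternatives. The fits were tested on simulated data. Replicate numbers are shared between the groups, but with 2 libraries each and no label tying them they were not treated as pairs.

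Members, gene lists and alternatives were chosen with earlier results of these data known. Named by rule were members past the threshold, the 3 highest per kb and 2 largest differences of each family, and effectors past the threshold; other genes, including those under the filter, were named after their values were seen. Lengths are those of the longest GENCODE M21 transcript. Chromosomes (70 of 70 members) and promoters (60 of 70) come from RefSeq tables of GRCm38.p6. The floor of 3 reads and the intervals cover counting error only.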

Additional observations from a re-analysis of the deposited data

How the results depend on the processing

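The members' count moved with the spread used. Against 2 of 46 (1 higher, 1 lower) and 254 of all genes (171 and 83), DESeq2 called 5 members and 538 genes, all 16 samples counted separately 18 (5 higher, 13 lower) and 4377, no filter 6 and 146, and a minimum of 50 gave 1 and 102. Effectors (4) went to 8, 34, 2 and 2 in the same order. Without the trend, 158 genes passed. With libraries A and B as a replicate block, 10 members (4 higher, 6 lower), 22 effectors and 2095 genes passed. Sema3a, Unc5c and Slit1 were among these members. Deviations of same-numbered libraries correlated across genes (Pearson r 0.44, Spearman rho 0.53). No label says what these libraries share, and the main fit held no block. Fits that each left out 1 library gave 0 to 8 members, 2 to 13 effectors, 138 to 1098 genes and a member median of -0.11 to 0.0090; the cause was not tested. They gave 3.12 to 3.64 for Wnt5a on the log2 scale. The pseudocounts, median centring, quantile normalization, edgeR and removal of chromosome medians gave 2 members each.

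Direction turned for Ntn1 with chromosome medians removed (-0.087). When 1 library was left out, log2 differences ran from -0.070 to 0.035 for Ephb3, -0.18 to 0.59 for Ephb6, -0.11 to 0.022 for Ntn4, -0.18 to 0.031 for Plxnb2, -0.53 to 0.38 for Robo2 and -0.035 to 0.16 for Unc5a. Over the named genes and alternatives, 305 values kept direction and call, 13 lost and 20 gained the call, and 9 turned. Requiring 50 reads in each Wnt5a library, a limit chosen after the data were seen, left 3 of the 6 low genes (Epha5, Epha7 and Sema6d), and 10 reads left all 6. Depth limits the members under the filter of 10, which rest on few reads per sample.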
